A study of Mus musculus with 12 samples.

Results

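The mitochondrial chromosome of the mouse carries 37 genes, chosen here by their place on that chromosome: 13 mRNAs for subunits of the respiratory chain, 2 rRNAs and 22 tRNAs, out of 41388 gene identifiers in the count files. Their RNA was followed in 12 RNA-seq libraries of cortex and hippocampus from C57/Bl6 mice at postnatal day 21. All mice carried Aldh1L1::RPL10a-eGFP, a bacterial artificial chromosome transgene in which the astrocyte promoter Aldh1l1 drives a protein of the cytosolic ribosome with a green fluorescent tag. In translating ribosome affinity purification (TRAP), antibodies against the tag enrich these ribosomes together with their RNA. Each group holds 3 libraries. The PAP TRAP group (for peripheral astrocyte process) is the immunoprecipitate from synaptoneurosomes, a sucrose gradient layer of pinched-off synapses and the fine processes around them. The PAP input group is that layer before precipitation. The cortex TRAP group is the immunoprecipitate of the cortex and hippocampus preparation, and the cortex input group is the material before that step. This account of the cortex groups rests on their source names, since the labels give all 12 samples one extraction protocol with the synaptoneurosome gradient. Cycloheximide at 1 ug/mL and TTX at 1 mM are given for all samples. The labels do not say whether replicates came from separate animals, so the p-values measure the spread between these libraries, which may be technical.

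As background, mitochondrial DNA is transcribed inside the organelle from both strands as long precursors, and excision of the tRNAs that lie between the other genes releases the mRNAs and rRNAs. The 2 rRNAs build the mitochondrial ribosome, which translates the 13 mRNAs within the matrix and is distinct from the cytosolic ribosome that carries the tag. All other proteins of the organelle are made on cytosolic ribosomes from nuclear genes and imported. Mitochondria are abundant in synaptic terminals and are also found in astrocyte processes.

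Transcripts of some mitochondrial genes share their sequence with insertions of mitochondrial DNA in nuclear chromosomes. A read that lies wholly within an identical stretch matches more than 1 place. The first pair below shows the start of mt-Co2 (cytochrome c oxidase subunit 2) at chrM:7013-7072 beside the pseudogene Gm28661 at chr1:24615506-24615565 on the minus strand, with the start codon in capitals. The second pair shows mt-Nd3 (a complex I subunit) at chrM:9459-9518 beside Gm28438 at chr1:24613060-24613119 on the minus strand, with the base that differs in capitals. Sequences and positions are from GENCODE M21 (GRCm38), matched by gene identifier, and are printed 5′ to 3′.
mt-Co2: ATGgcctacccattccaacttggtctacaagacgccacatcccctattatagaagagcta
Gm28661: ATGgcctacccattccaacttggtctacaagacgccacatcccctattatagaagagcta
mt-Nd3: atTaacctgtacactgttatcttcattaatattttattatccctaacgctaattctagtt
Gm28438: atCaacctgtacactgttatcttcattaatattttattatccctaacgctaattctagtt
In all, 7 annotated pseudogenes on chromosome 1, between positions 24611535 and 24616197 of the minus strand, matched mitochondrial mRNAs over 4149 aligned bases with 7 mismatches, of which 6 lay in the copy of mt-Co1 and 1 in the copy of mt-Nd3.

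The 3 tRNAs with the most counts are shown as the tRNA class carried one of the contrasts below, with the anticodon in capitals. They are mt-Tl1 (leucine) at chrM:2676-2750 on the plus strand, mt-Tc (cysteine) at chrM:5192-5257 on the minus strand and mt-Tp (proline) at chrM:15356-15422 on the minus strand.
mt-Tl1: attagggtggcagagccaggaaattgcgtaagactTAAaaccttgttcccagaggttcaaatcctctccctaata
mt-Tc: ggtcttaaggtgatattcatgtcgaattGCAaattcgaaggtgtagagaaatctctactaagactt
mt-Tp: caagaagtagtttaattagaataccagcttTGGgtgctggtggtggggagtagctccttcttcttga

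Gene counts per library ranged from 4918113 to 17553985, and 20.3% to 55.5% of all counts in the files were assigned to no gene. The summed share of 10 astrocyte markers in nuclear counts was 4.76% to 9.34% in PAP TRAP against 3.97% to 4.78% in PAP input, and 6.75% to 9.97% in cortex TRAP against 0.779% to 0.866% in cortex input. The labels call all samples astrocytes. In both inputs, 10 neuronal markers were also present, at 1.04% to 1.46% of nuclear counts in PAP input and 1.74% to 1.92% in cortex input. No astrocyte or neuronal marker was at 0 in all libraries of a group. PAP input replicate 3 stood apart from the other PAP input libraries in the composition of its mitochondrial mRNA, as given below.

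RNA of the mitochondrial chromosome made up very different parts of the 4 groups. In PAP TRAP it took 47.6%, 39.6% and 35.6% of gene counts, against 89.8%, 91.9% and 83.8% in PAP input. Cortex TRAP held 1.03%, 1.08% and 1.28%, against 44.8%, 49.8% and 50.2% in cortex input. PAP TRAP and PAP input did not overlap, the cortex groups did not overlap, and each PAP group lay apart from its cortex counterpart. PAP TRAP replicate 1 lay within the range of cortex input, which is not its counterpart. With so large a share in PAP input, only 1423296 to 2476076 counts per library were left for nuclear genes there, against 4864787 to 7777763 in cortex TRAP. In bulk fractions such as these, fewer mitochondria or cells of a type and less RNA in each cannot be told apart.

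**Figure D1:**
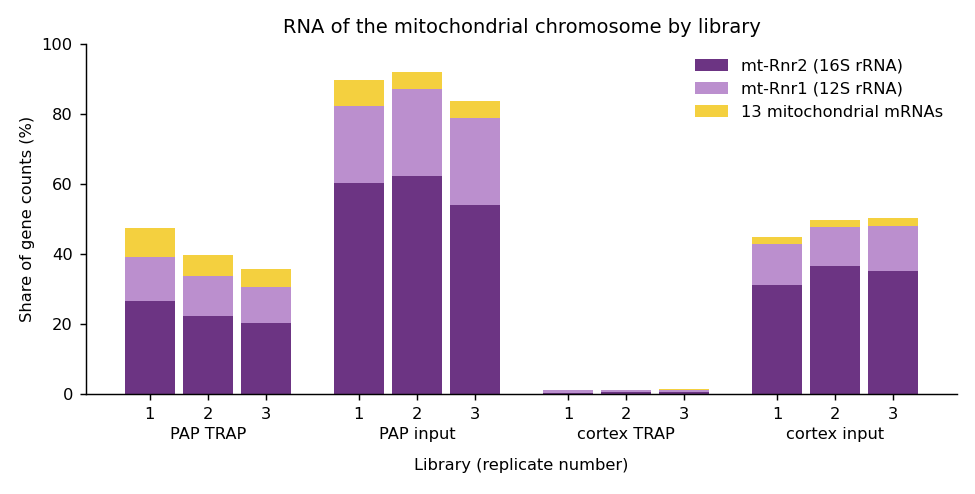
Share of gene counts (%) taken by mt-Rnr2, mt-Rnr1 and the 13 mitochondrial mRNAs in each of the 12 libraries, as stacked bars labelled by replicate number within the 4 groups. The bars reach 35.6% to 47.6% in PAP TRAP, 83.8% to 91.9% in PAP input, 1.03% to 1.28% in cortex TRAP and 44.8% to 50.2% in cortex input, and the rRNAs fill most of each bar.

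The rRNAs formed most of these counts in all groups. Their share of mitochondrial counts was 82.4%, 85.3% and 86.0% in PAP TRAP, against 91.5%, 94.8% and 94.0% in PAP input. In cortex TRAP it was 96.3%, 95.2% and 95.6%, against 95.4%, 95.8% and 95.3% in cortex input. The rRNA share was thus lower in all 3 PAP TRAP libraries than in any PAP input library, while the cortex groups overlapped. Expressed as a ratio of counts, rRNA over mRNA was 4.70, 5.84 and 6.17 in PAP TRAP against 10.8, 18.4 and 15.6 in PAP input, and 26.3, 19.98 and 21.7 in cortex TRAP against 20.8, 23.0 and 20.4 in cortex input.

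The mRNAs took 8.34%, 5.79% and 4.97% of gene counts in PAP TRAP, against 7.60%, 4.73% and 5.04% in PAP input, so on this scale the PAP groups overlapped. Cortex TRAP held 0.0376%, 0.0517% and 0.0567%, against 2.06%, 2.08% and 2.35% in cortex input. In counts, the mitochondrial mRNAs summed to 2542 to 3971 per cortex TRAP library and to 215608 to 1061054 in the other libraries. Values of mRNAs within cortex TRAP therefore carry more counting error than those elsewhere.

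The tests used edgeR's quasi-likelihood method on all 12 libraries with TMM scaling, which sets libraries level on the bulk of genes, and Benjamini-Hochberg adjustment over the 13364 genes that passed its filter on low counts, called at 0.05. Of the 37 members, 27 passed the filter: 11 mRNAs, both rRNAs and 14 tRNAs. The 10 that did not were mt-Atp8, mt-Nd4l, mt-Tw, mt-Ty, mt-Ts1, mt-Td, mt-Tk, mt-Tg, mt-Th and mt-Tt. A low-count member that passed did so through the groups where it was high, so counts of calls are given as a description.

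The first question is what the precipitate of the synaptoneurosome layer held relative to its own input. The rRNAs and the abundant mRNAs were lower in PAP TRAP on the TMM scale, by unequal amounts, and the tRNAs were not called. Lower calls fell on 10 of the 27 tested members (8 mRNAs and both rRNAs), where 1.52% of all tested genes were called lower, and 0 members were called higher, where 3.02% of all genes were. At an unadjusted p under 0.05, 14 members were lower and 0 higher by edgeR, and the share of all genes at that level is not given. DESeq2 was run without the filter on low counts. It called 14 members lower, 12 mRNAs (where edgeR tested 11) and both rRNAs, and 0 higher. Of genes of all kinds, DESeq2 called 633 lower and 716 higher.

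mt-Rnr2, the rRNA of the large mitoribosomal subunit (chrM:1094-2675), had 2836519, 2214465 and 2143481 counts in PAP TRAP, which were 26.6%, 22.3% and 20.3% of gene counts, against 60.3%, 62.2% and 54.1% of gene counts in PAP input. All PAP TRAP libraries lay below all PAP input libraries. Its log2 change on the TMM scale was -3.63 ± 0.27 (SE, n = 3 per group, edgeR adjusted p = 4.11e-07), which is 12.4-fold lower in PAP TRAP. mt-Rnr1, the rRNA of the small subunit (chrM:70-1024), took 12.6%, 11.5% and 10.3% of gene counts in PAP TRAP against 21.9%, 25.003% and 24.6% in PAP input, with a log2 change of -3.32 ± 0.25 (edgeR adjusted p = 4.11e-07).

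mt-Cytb encodes cytochrome b, the only subunit of complex III made in the organelle, and lies at chrM:14145-15288. Its normalized CPM, the count scaled to the TMM-adjusted library size, was 13075, 7556 and 5412 in PAP TRAP, against 86108, 64749 and 38390 in PAP input. The groups did not overlap, and the log2 change was -2.86 ± 0.33 (edgeR adjusted p = 0.000145). mt-Co1 encodes the catalytic subunit of complex IV and lies at chrM:5328-6872. It had 22721, 15043 and 15929 normalized CPM in PAP TRAP, against 48320, 49631 and 42162 in PAP input, again without overlap, and a log2 change of -1.38 ± 0.23 (edgeR adjusted p = 0.00236).

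Among the complex I subunits, mt-Nd2 (chrM:3914-4951) had 3005, 1652 and 1128 normalized CPM in PAP TRAP, against 38615, 23621 and 7200 in PAP input. Its log2 change was -3.59 ± 0.46 (edgeR adjusted p = 0.000446), with PAP input replicate 3 at less than any other PAP input library. mt-Nd1 (chrM:2751-3707) had 15930, 9353 and 7092 normalized CPM in PAP TRAP, against 31552, 25544 and 18826 in PAP input, and a log2 change of -1.23 ± 0.31 (edgeR adjusted p = 0.0270). The mt-Nd1 call was the least secure of the abundant mRNAs. It was lost without PAP TRAP replicate 2 (adjusted p = 0.0866) or 3 (0.113), without PAP input replicate 1 (0.115) or 2 (0.0791), and against a minimum fold of 1.5 (0.161), with edgeR log2 changes from -1.62 to -1.01 over all single omissions.

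The other 3 abundant complex I mRNAs fell in PAP TRAP too, with log2 changes of -1.96 ± 0.35 for mt-Nd4, -2.61 ± 0.32 for mt-Nd5 and -2.97 ± 0.36 for mt-Nd6 (edgeR adjusted p = 0.00397, 0.000273 and 0.000248). mt-Nd6 is the only mRNA encoded on the minus strand. The strand setting of the counting is not known, and its counts may include RNA from the other strand.

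Scaling decides what can be said of these mRNAs. With total gene counts in place of TMM, which moved the median of all genes by 2.17 in this comparison, the log2 change became 0.99 for mt-Nd1, 0.82 for mt-Co1 and 0.30 for mt-Nd4, and 12 of the 27 tested members were called higher and 3 lower in PAP TRAP, where 68.7% of all genes were called higher and 0.112% lower. With TMM factors from nuclear genes alone, 585 genes of all kinds were called higher and 164 lower, against 403 and 203 with factors from all genes. mt-Rnr1, mt-Rnr2 and mt-Nd2 were the members whose lower calls did not rest on that choice, though the size of the rRNA falls did. As a mean share of gene counts, mt-Rnr2 was at 23.1% in PAP TRAP against 58.9% in PAP input, and mt-Rnr1 at 11.5% against 23.8%. On the TMM scale mt-Rnr2 was 12.4-fold lower.

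A scale of mitochondrial mRNA itself takes no factor from nuclear genes, so a second fit took the summed count of the 13 mRNAs as library size. Its estimates of spread and its adjusted p-values still drew on all 13364 tested genes, nuclear genes included. In PAP TRAP against PAP input, that fit called 3 members lower, mt-Rnr1 at -1.23 ± 0.42 (edgeR adjusted p = 0.0178), mt-Rnr2 at -1.52 ± 0.41 (0.00501) and mt-Nd2 at -1.39 ± 0.45 (0.0139). It called mt-Tv, the valine tRNA, higher at 3.24 ± 1.24 (0.0318). On this scale nuclear genes move as a body, with 61% of all genes called higher and 0.127% lower. mt-Tc, the cysteine tRNA, had an unadjusted p under 0.05 and was not called after adjustment. Without PAP input replicate 2 the mt-Rnr1 call was lost (adjusted p = 0.0819), as it was with the median log ratio of the mRNAs (0.0627) or the 5 mRNAs of little shared sequence (0.0915) as scale. The mt-Nd2 call was lost on that scale of 5 mRNAs too (-1.03, adjusted p = 0.0579). Without PAP input replicate 1 the mt-Nd2 call was lost (0.0610), and the mt-Tv call was lost on leaving out any PAP input library, PAP TRAP replicate 2 or cortex input replicate 2.

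**Figure D2:**
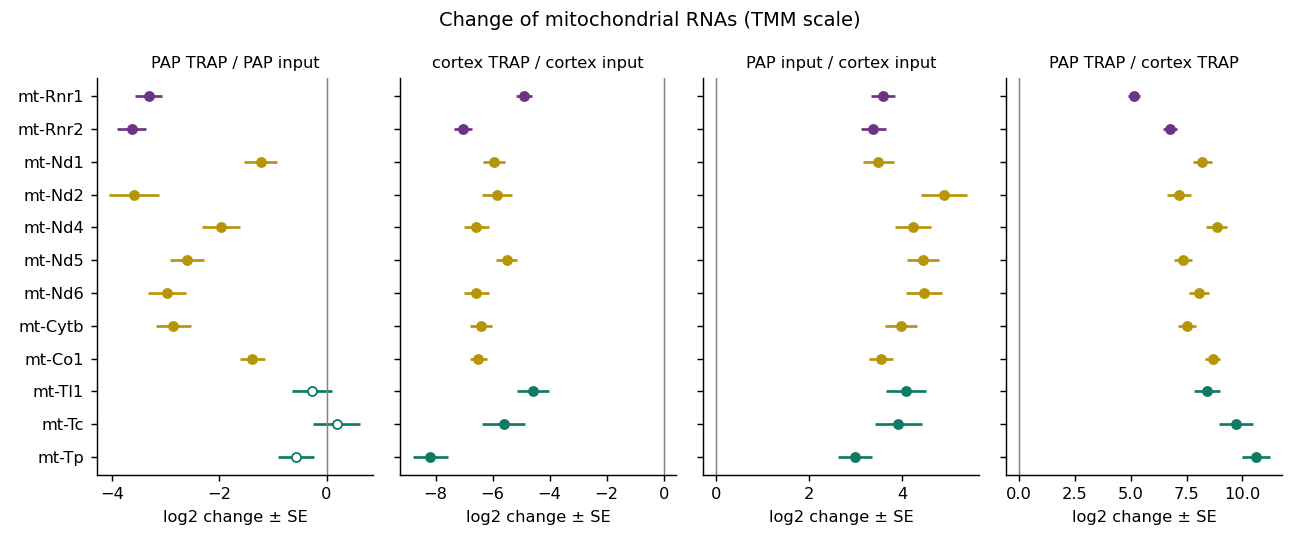
Log2 change on the TMM scale with its SE for both rRNAs (purple), the 7 abundant mRNAs (ochre) and the 3 tRNAs with the most counts (green) in 4 comparisons, with filled points for calls at an adjusted p under 0.05 and open points for members not called. In PAP TRAP over PAP input the rRNAs lie near -3.5 and the mRNAs spread from -3.59 (mt-Nd2) to -1.23 (mt-Nd1), while the 3 tRNAs lie around 0 and are not called.

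The makeup of the mRNA counts differed between the PAP groups. Per mRNA count, 5 mRNAs, 0 tRNAs and both rRNAs lay lower in every PAP TRAP library than in any PAP input library, where 0.266% of all genes did. The mRNAs were mt-Nd2, mt-Nd5, mt-Nd6, mt-Cytb and mt-Atp6. mt-Atp6 had only 49 to 152 counts in these libraries and mostly shared sequence, described below, and no level is read from it. mt-Nd2 was 3.85%, 3.48% and 2.77% of mitochondrial mRNA counts in PAP TRAP, against 12.004%, 9.54% and 4.85% in PAP input. mt-Cytb was 16.8%, 15.9% and 13.3% in PAP TRAP, against 26.8%, 26.2% and 25.9% in PAP input. Both were lower in all PAP TRAP libraries, and mt-Cytb was nearly constant among the PAP input libraries whereas mt-Nd2 was not.

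mt-Nd1 made up 20.4%, 19.7% and 17.4% of mitochondrial mRNA counts in PAP TRAP, against 9.81%, 10.3% and 12.7% in PAP input. mt-Co1 made up 29.1%, 31.7% and 39.2% in PAP TRAP, against 15.02%, 20.1% and 28.4% in PAP input. Both were higher in all PAP TRAP libraries, as were 61.4% of all genes per mRNA count. The gap for mt-Co1 was small, with PAP input replicate 3 close to PAP TRAP replicate 1. In the second fit none of these was called, at 0.81 ± 0.39 for mt-Nd1, 0.66 ± 0.40 for mt-Co1 and -0.78 ± 0.38 for mt-Cytb (edgeR adjusted p = 0.0760, 0.157 and 0.0809). mt-Nd1 was called higher with the median log ratio (1.10, adjusted p = 0.0234) or the 5 mRNAs of little shared sequence (1.13, 0.0278) as scale. Without PAP input replicate 3, both mt-Nd1 (adjusted p = 0.0413) and mt-Co1 (0.0467) were called higher.

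mt-Nd4 took 16.1%, 17.2% and 11.3% of mitochondrial mRNA counts in PAP TRAP, against 15.3%, 13.4% and 11.2% in PAP input, with overlap. mt-Nd5 took 12.3%, 11.003% and 14.2% in PAP TRAP, against 18.4%, 17.9% and 14.9% in PAP input. mt-Nd6 took 1.38%, 1.07% and 1.83% in PAP TRAP, against 2.69%, 2.58% and 2.13% in PAP input. The last pair of mRNAs did not overlap between the groups, by a small margin at PAP input replicate 3.

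**Figure D3:**
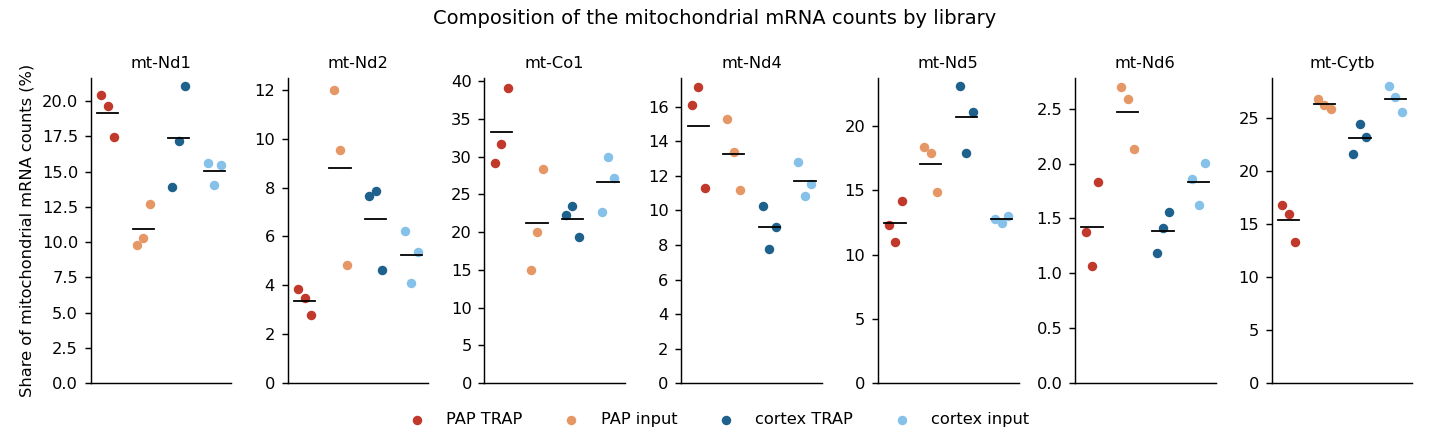
Share of each abundant mRNA in the mitochondrial mRNA counts (%), 1 panel per gene with its own axis from 0, 1 point per library and a line at the mean of the 3 libraries. mt-Nd2 and mt-Cytb are lower and mt-Nd1 and mt-Co1 higher in PAP TRAP than in PAP input, and PAP input replicate 3 is the lowest of its group for mt-Nd2 (4.85%) and the highest for mt-Co1 (28.4%).

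Per kb of gene and relative to mt-Nd1, the level of mt-Rnr2 was 9.44, 11.8 and 14.2 in PAP TRAP against 49.0, 77.0 and 51.2 in PAP input, and that of mt-Rnr1 was 7.42, 10.1 and 11.9 against 29.4, 51.3 and 38.6. mt-Cytb stood at 0.687, 0.676 and 0.638 of mt-Nd1 per kb in PAP TRAP, against 2.28, 2.12 and 1.71 in PAP input. mt-Nd2, whose gene follows mt-Nd1 on the chromosome after 3 tRNA genes, stood at 0.174, 0.163 and 0.147 in PAP TRAP, against 1.13, 0.853 and 0.353 in PAP input. Per kb of the whole gene, mt-Cytb was thus below mt-Nd1 in all PAP TRAP libraries and above it in all PAP input libraries. Per kb of the stretches not shared with nuclear transcripts, described below, mt-Co1 stood at 1.77, 1.998 and 2.79 of mt-Nd1 in PAP TRAP against 1.90, 2.41 and 2.78 in PAP input, so the groups overlapped for that ratio.

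Astrocyte and neuronal markers moved beside these results. Of 10 astrocyte markers 3 were called higher in PAP TRAP than in PAP input and 0 lower by edgeR, and of 10 neuronal markers 2 were lower and 0 higher. Neuronal markers summed to 0.389% to 0.573% of nuclear counts in PAP TRAP against 1.04% to 1.46% in PAP input, and 8 oligodendrocyte markers to 0.789% to 1.04% against 0.564% to 0.764%. Of the oligodendrocyte markers, Mbp was called higher (1.75 ± 0.30) and Ugt8a (-1.33 ± 0.31) and Mog (-2.03 ± 0.55) lower (edgeR adjusted p = 0.00291, 0.0181 and 0.0407), with a list median of -0.27. For 8 microglial markers the sums were 0.0247% to 0.0367% in PAP TRAP against 0.0592% to 0.124% in PAP input. Their part in the mitochondrial results was not tested.

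The remaining 6 mRNAs had hardly any counts in any library, at most 152, while the 7 abundant mRNAs had at least 3502 outside cortex TRAP. mt-Atp6, a subunit of complex V, had 81, 52 and 49 counts in PAP TRAP, against 152, 106 and 91 in PAP input. mt-Co2 had 39, 27 and 16 counts in PAP TRAP, against 68, 50 and 31 in PAP input, and mt-Nd4l had 0 in all 12 libraries. mt-Co3 and mt-Nd3 stayed at or below 43 and 25 counts, and mt-Atp8 at or below 18.

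The low counts followed the shared sequence with 1 exception. Of all 50-base stretches of the gene, 100% in mt-Co2, 99.9% in mt-Co3, 99.5% in mt-Atp6, 98.8% in mt-Nd4l and 97.99% in mt-Nd3 also occur in annotated nuclear transcripts. The share was 62.2% in mt-Nd4, 51.1% in mt-Co1, 8.19% in mt-Nd2, 7.61% in mt-Nd5 and 0% in mt-Nd1, mt-Nd6 and mt-Cytb. mt-Atp8 is the exception, at 0% shared and at most 18 counts. On the chromosome it lies between mt-Co2 and mt-Atp6, and the copies of these neighbours on chromosome 1 leave 233 bases between them in which no copy of mt-Atp8 is annotated.

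mt-Atp8 and mt-Atp6 are both complex V subunits and overlap by 43 bases (chrM:7927-7969), printed here from the start codon of mt-Atp6 in capitals.
overlap of mt-Atp8 and mt-Atp6: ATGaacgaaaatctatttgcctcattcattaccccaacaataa
In the count files, reads that aligned to more than 1 place made up 16.1% to 32.5% of all counts per library, and the genes of their origin are not recorded there. Counts of 14 nuclear genes that share such stretches summed to 1363 to 2021 in PAP TRAP, 1622 to 1974 in PAP input, 11 to 30 in cortex TRAP and 614 to 767 in cortex input. The part of such reads in the low counts of these 6 mRNAs was not tested, and no RNA level is read from those counts here. Among them mt-Atp6 was called lower in PAP TRAP (log2 change -2.64 ± 0.52, edgeR adjusted p = 0.00761), a call lost without PAP input replicate 1 (adjusted p = 0.0550), and mt-Co2, mt-Co3 and mt-Nd3 were not called by edgeR on all 12 libraries. DESeq2 called all 3 lower (adjusted p = 0.00173, 0.0478 and 0.0252), and edgeR on the compared groups alone called mt-Co2 lower (adjusted p = 0.0397).

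**Figure D4:**
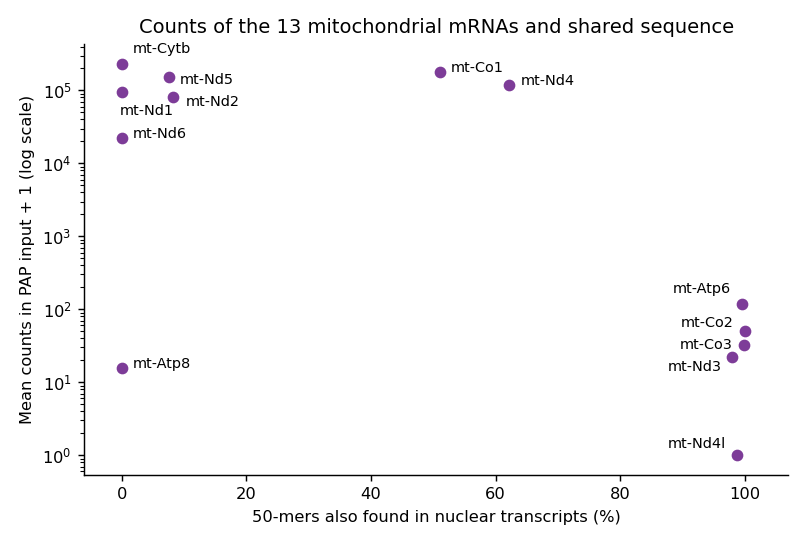
Mean counts in PAP input plus 1 (log scale, n = 3) of the 13 mitochondrial mRNAs against the percent of their 50-base stretches that also occur in annotated nuclear transcripts. The 5 mRNAs with at least 97.99% shared have few or no counts, mt-Co1 (51.1%) and mt-Nd4 (62.2%) are as abundant as mRNAs with little shared sequence, and mt-Atp8 (0%) is low.

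The tRNAs were rare in these libraries. Summed over 22 genes, they had 3862, 2564 and 2208 counts in PAP TRAP, against 1150, 1226 and 1056 in PAP input. In cortex TRAP there were 4, 1 and 8 counts, against 394, 326 and 431 in cortex input. Library fragments were about 200 bp, longer than any tRNA gene, so these counts need not stand for mature tRNAs.

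Beside the mRNAs, tRNA counts stood higher in PAP TRAP than in PAP input. Per 1000 mitochondrial mRNA counts, the tRNAs had 4.34, 4.45 and 4.21 counts in PAP TRAP, against 1.08, 1.48 and 1.37 in PAP input. Cortex input held 1.68, 1.51 and 1.51, just above all PAP input libraries, and cortex TRAP held 1.35, 0.393 and 2.01, which rest on at most 8 counts. All 13 tRNAs with a mean of at least 10 counts were higher per mRNA count in every PAP TRAP library than in any PAP input library. The same held for 61.4% of the 12394 genes of all kinds with that mean. In this respect these 13 tRNAs stood with most nuclear genes and apart from the rRNAs. That mean was taken over all 12 libraries, and mt-Tv reached it through PAP TRAP, at 60.3 counts on average against 8.33 in PAP input. Below that mean, mt-Te did not follow. It stood at 0.0191, 0.00869 and 0.0153 per 1000 mRNA counts in PAP TRAP, against 0.0188, 0.0181 and 0.0208 in PAP input. mt-Tt, with at most 10 counts per library, was higher in all PAP TRAP libraries.

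mt-Tl1, whose sequence is shown above, had 933, 558 and 443 counts in PAP TRAP, against 245, 238 and 263 in PAP input. mt-Tc had 702, 480 and 420 in PAP TRAP, against 145, 180 and 105 in PAP input. mt-Tp, the last gene before the control region, had 772, 597 and 412 in PAP TRAP, against 206, 302 and 355 in PAP input. On the TMM scale, all 3 were close to 0, at -0.27 ± 0.38, 0.19 ± 0.45 and -0.57 ± 0.34, and were not called (edgeR adjusted p = 0.761, 0.870 and 0.369). In the fit scaled to mitochondrial mRNA they stood at 1.74 ± 0.91, 2.31 ± 1.01 and 1.40 ± 0.94, also not called (edgeR adjusted p = 0.101, 0.0546 and 0.192). mt-Tc was called higher with the median log ratio (2.60, adjusted p = 0.0294) or the 5 mRNAs of little shared sequence (2.65, 0.0313) as scale, and on leaving out any cortex TRAP library (adjusted p = 0.0334 to 0.0416).

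Over all tested tRNAs, TMM-scale log2 changes ran from -2.42 (mt-Te) to 1.15 (mt-Tv). By edgeR 0 of 14 were called, with 1 lower (mt-Te) and 0 higher at an unadjusted p under 0.05. DESeq2 called 0 as well. Among the rRNAs and the 7 abundant mRNAs, mt-Nd1 and mt-Co1 had the smallest falls and mt-Rnr2, mt-Nd2 and mt-Rnr1 the largest.

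Of the remaining 9 tRNAs, mt-Tw, mt-Td, mt-Tk and mt-Tg had 0 counts in all libraries, and mt-Ty, mt-Ts1 and mt-Th had at most 2. mt-Te, the glutamate tRNA, averaged 8.42 counts and mt-Tt, the threonine tRNA, 4. In cortex TRAP, 17 of the 22 tRNAs had 0 counts in all 3 libraries, which at 3 counts per library allows up to 0.755 to 1.18 per 1000 mRNA counts. On the minus strand lie 8 tRNAs, mt-Tc and mt-Tp among them, and without a stated strand setting their counts may hold RNA of the opposite strand.

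**Figure D5:**
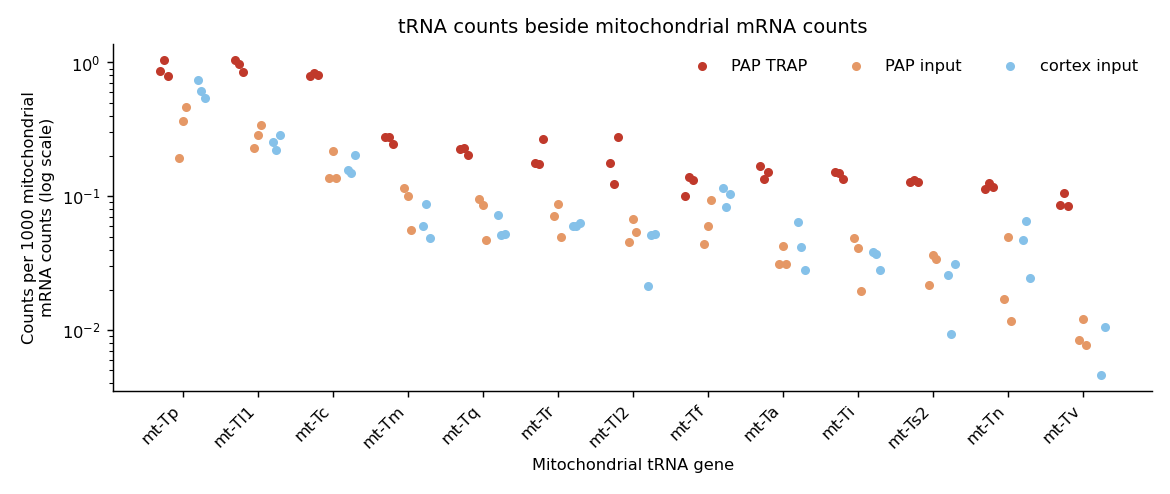
Counts per 1000 mitochondrial mRNA counts (log scale) of the 13 tRNAs with a mean of at least 10 counts, 1 point per library of PAP TRAP, PAP input and cortex input. Values of 0 cannot be drawn on this axis, and cortex TRAP is not drawn because it held at most 8 tRNA counts per library. All PAP TRAP points lie above the PAP input points of the same tRNA.

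The second question is what the precipitate of the whole preparation held relative to its input. Cortex TRAP had far less mitochondrial RNA than cortex input in all 3 classes, and 25 of the 27 tested members were called lower (11 mRNAs, both rRNAs and 12 tRNAs), where 19.5% of all tested genes were called lower. None was called higher by edgeR, also at an unadjusted p under 0.05, nor by DESeq2. mt-Te and mt-Tv were not called. Nuclear-retained RNAs and neuronal markers were lower in the same samples: 5 nuclear noncoding RNAs summed to 0.0436% to 0.0771% of nuclear counts in cortex TRAP against 2.78% to 3.96% in cortex input, and the neuronal markers to 0.189% to 0.296% against 1.74% to 1.92%. Oligodendrocyte markers summed to 0.0595% to 0.0888% in cortex TRAP against 0.412% to 0.448% in cortex input (7 of 8 called lower by edgeR), and microglial markers to 0.00217% to 0.00361% against 0.0127% to 0.0154% (5 of 8 lower). All 10 astrocyte markers were called higher. Their part in the mitochondrial fall was not tested.

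mt-Co1 had 657, 596 and 770 counts in cortex TRAP, against 53082, 64724 and 77731 in cortex input. Its log2 change was -6.50 ± 0.29 (edgeR adjusted p = 3.89e-11), which is 90.4-fold lower in cortex TRAP. mt-Cytb fell by 6.39 ± 0.39 and mt-Nd5, a complex I subunit, fell by 5.50 ± 0.36 on the log2 scale (edgeR adjusted p = 2.73e-09 and 3.64e-09). Over the 7 abundant mRNAs the changes ran from -6.57 to -5.50, a narrower range than in PAP TRAP over PAP input.

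Between the rRNAs, cortex TRAP stood apart from all other groups. mt-Rnr1 had 47422, 29153 and 53452 counts in cortex TRAP, and mt-Rnr2 had 30293, 21630 and 32553, which gives ratios of mt-Rnr1 to mt-Rnr2 of 1.57, 1.35 and 1.64. In cortex input these ratios were 0.376, 0.309 and 0.365. They were 0.474, 0.518 and 0.507 in PAP TRAP, against 0.362, 0.402 and 0.455 in PAP input. Only in cortex TRAP did mt-Rnr1 exceed mt-Rnr2, in all 3 libraries.

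On the TMM scale mt-Rnr1 changed by -4.89 ± 0.27 and mt-Rnr2 by -7.02 ± 0.32 in cortex TRAP (edgeR adjusted p = 1.09e-09 and 3.89e-11). Relative to mitochondrial mRNA, mt-Rnr1 was higher by 1.31 ± 0.42 (edgeR adjusted p = 0.00594) and mt-Rnr2 was not called at -0.82 ± 0.41 (adjusted p = 0.0602). In that fit 95.4% of all genes were called higher and 0% lower, and no other member was called. Where the median log ratio of the mRNAs was the scale, the mt-Rnr1 call was lost (0.88, adjusted p = 0.0592) and mt-Rnr2 was called lower (-1.25, adjusted p = 0.0101). mt-Rnr2 was also called lower without cortex TRAP replicate 1 (adjusted p = 0.0475) or PAP TRAP replicate 1 (0.0124). The split between the rRNAs, which involves no scale, is the same in both.

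Within the mRNA counts, mt-Nd5 made up 23.1%, 17.9% and 21.1% in cortex TRAP, against 12.8%, 12.5% and 13.002% in cortex input. mt-Cytb made up 21.6%, 24.4% and 23.2% in cortex TRAP, against 28.0%, 26.9% and 25.5% in cortex input. mt-Nd4 made up 10.3%, 7.79% and 9.07% in cortex TRAP, against 12.8%, 10.9% and 11.5% in cortex input. mt-Nd6 made up 1.18%, 1.42% and 1.56% in cortex TRAP, against 1.86%, 1.62% and 2.00% in cortex input. These 4 did not overlap between the cortex groups, with mt-Nd5 the one that was higher in cortex TRAP. Per mRNA count, 92.4% of all genes with a mean of at least 10 counts were higher in every cortex TRAP library and 0.565% were lower in every one. The shares of mt-Nd1, mt-Nd2 and mt-Co1 overlapped, and no mRNA was called relative to mitochondrial mRNA.

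The third question is how the synaptoneurosome layer differs from the whole preparation before any precipitation. Mitochondrial RNA was higher in PAP input than in cortex input as a body: 26 of the 27 tested members were called higher (11 mRNAs, both rRNAs and 13 tRNAs, all but mt-Te), where 7.26% of all genes were, and 0 were called lower, where 2.07% of all genes were, also at an unadjusted p under 0.05 and by DESeq2. The log2 changes of the rRNAs were 3.59 ± 0.26 (mt-Rnr1) and 3.39 ± 0.27 (mt-Rnr2), with edgeR adjusted p = 1.32e-07 and 3.84e-07. Those of the abundant mRNAs ran from 3.50 (mt-Nd1) to 4.90 (mt-Nd2).

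mt-Nd2 had 38615, 23621 and 7200 normalized CPM in PAP input, against 808, 586 and 936 in cortex input, and PAP input replicate 3 was well below the other libraries of its group. Relative to mitochondrial mRNA 0 members were called in either direction, and 0 passed an unadjusted p under 0.05, where 0.00748% of all genes were called higher and 92.9% lower. mt-Nd2 stood at 0.75 ± 0.45 in that fit (edgeR adjusted p = 0.112), the largest value among the abundant mRNAs and rRNAs. Per mitochondrial mRNA count, mt-Nd5 and mt-Nd6 were higher in every PAP input library than in any cortex input library, where 0.0242% of all genes were. By the same count 3 mRNAs (mt-Nd1, mt-Co2 and mt-Atp6), both rRNAs and 1 tRNA (mt-Tp) were lower in every PAP input library, where 93.2% of all genes were. Of these, mt-Co2 and mt-Atp6 had few counts and mostly shared sequence, and no level is read from them. With total counts in place of TMM, 13 of the 27 tested members were called higher, where 0.142% of all genes were. Cell type markers moved in the same comparison. Astrocyte markers summed to 3.97% to 4.78% of nuclear counts in PAP input against 0.779% to 0.866% in cortex input. By edgeR, 8 of 10 of them were called higher and 0 lower. So were 3 of 8 oligodendrocyte and 6 of 8 microglial markers, with 0 lower. Of 10 neuronal markers, 1 was higher and 1 lower. Microglial markers summed to 0.0592% to 0.124% of nuclear counts in PAP input against 0.0127% to 0.0154% in cortex input. Nuclear noncoding RNAs were lower, at 0.0735% to 0.266% against 2.78% to 3.96%. Their part in the mitochondrial result was not tested.

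The last question is how the precipitate of the synaptoneurosome layer differs from that of the whole preparation. All 27 tested members were called higher in PAP TRAP than in cortex TRAP, where 19.3% of all genes were. mt-Co1 had 22721, 15043 and 15929 normalized CPM in PAP TRAP, against 37.2, 49.4 and 46.0 in cortex TRAP, a log2 change of 8.66 ± 0.32 (edgeR adjusted p = 1.63e-12). mt-Rnr1 rose least among the rRNAs and abundant mRNAs, by 5.16 ± 0.28 against 6.78 ± 0.31 for mt-Rnr2 (edgeR adjusted p = 1.57e-10 and 6.06e-11). Other cell type markers moved in the same comparison. By edgeR, 9 of 10 neuronal, 6 of 8 oligodendrocyte and 6 of 8 microglial markers were called higher in PAP TRAP, and 9 of 10 astrocyte markers lower. As shares of nuclear counts, neuronal markers summed to 0.389% to 0.573% in PAP TRAP against 0.189% to 0.296% in cortex TRAP, oligodendrocyte markers to 0.789% to 1.04% against 0.0595% to 0.0888%, and microglial markers to 0.0247% to 0.0367% against 0.00217% to 0.00361%. Astrocyte markers summed to 4.76% to 9.34% in PAP TRAP against 6.75% to 9.97% in cortex TRAP. Their part in the mitochondrial result was not tested.

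Relative to mitochondrial mRNA, PAP TRAP had less rRNA than cortex TRAP, with mt-Rnr1 at -2.88 ± 0.44 and mt-Rnr2 at -1.28 ± 0.41 (edgeR adjusted p = 3.39e-06 and 0.00574). In that fit 4 members were called lower and 1 higher, where 97.6% of all genes were called lower and 0.00748% higher. The mt-Rnr2 call was lost with the median log ratio of the mRNAs (-0.38, adjusted p = 0.392) or the 5 mRNAs of little shared sequence (-0.85, 0.0804) as scale, which did not end the mt-Rnr1 call. The others, mt-Nd2 at -0.99 ± 0.45, mt-Te at -3.90 ± 1.71 and mt-Tp at 3.05 ± 1.41 (edgeR adjusted p = 0.0398, 0.0343 and 0.0437), were each lost on leaving out some single libraries. Without cortex TRAP replicate 1, mt-Te turned to 5.85 (adjusted p = 0.673). For mt-Nd2 the adjusted p reached 0.113 without cortex TRAP replicate 2, and for mt-Tp 0.126 without cortex TRAP replicate 3. mt-Te and mt-Tp had at most 2 and 1 counts in any cortex TRAP library.

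On the TMM scale, the change in TRAP over input lay higher for the synaptoneurosome layer than for the whole preparation. Tested as the difference between both changes (an interaction term), 22 of the 27 tested members were higher, where 12.9% of all genes were, and 0 lower, where 7.31% of all genes were, also at an unadjusted p under 0.05 and by DESeq2. The difference was 5.11 ± 0.34 for mt-Co1, 3.53 ± 0.44 for mt-Cytb, 2.27 ± 0.60 for mt-Nd2 and 1.58 ± 0.33 for mt-Rnr1 on the log2 scale (edgeR adjusted p = 2.65e-08, 1.38e-05, 0.0112 and 0.00182). Without PAP input replicate 1 the difference for mt-Nd2 was 2.86. In the same term, 10 of 10 astrocyte markers were lower (median -3.14), and 9 of 10 neuronal (3.04), 5 of 8 oligodendrocyte (2.24), 1 of 8 microglial (0.34) and 3 of 4 tested nuclear noncoding RNAs (4.76) were higher by edgeR. Their part was not tested. mt-Atp6, mt-Co3, mt-Nd3, mt-Tv and mt-Te were not called. Relative to mitochondrial mRNA 2 members were lower and 1 higher, where 73.5% of all genes were lower and 0.232% higher. These were mt-Rnr1 at -2.53 ± 0.59, mt-Nd2 at -1.75 ± 0.63 and mt-Tp at 3.95 ± 1.71 (edgeR adjusted p = 0.000869, 0.0183 and 0.0433). The mt-Nd2 call was lost without cortex input replicate 2 (adjusted p = 0.0589), with the median log ratio of the mRNAs as scale (-1.06, 0.155) and with the 5 mRNAs of little shared sequence (-1.23, 0.106), and the mt-Tp call without any 1 of 9 libraries (adjusted p up to 0.0891).

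Nuclear genes for subunits of the respiratory chain were often higher in cortex TRAP than in cortex input. Messages of nuclear subunits of the respiratory chain are translated on cytosolic ribosomes. In cortex TRAP over cortex input, 18 of 36 complex I subunits were called higher and 0 lower (median log2 change 1.27, against 0.05 over all genes), where 15.9% of all genes were called higher. For complex III 6 of 9 were higher, for complex IV 10 of 11 and for complex V 11 of 15, and 0 of these were lower. Ndufb11 (complex I) rose by 2.52 ± 0.42, Cox8a (complex IV) by 1.82 ± 0.27 and Atp5d (complex V) by 1.55 ± 0.25 on the log2 scale (edgeR adjusted p = 0.000106, 2.71e-05 and 5.24e-05), beside a log2 change of -6.50 for mt-Co1.

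The same lists were lower in PAP TRAP than in cortex TRAP, where all tested mitochondrial members were higher. There 19 of 36 complex I subunits were called lower, 7 of 9 of complex III, 8 of 11 of complex IV and 11 of 15 of complex V, with 0 higher, where 14.6% of all genes were called lower. Ndufa12 (complex I) fell by 2.06 ± 0.38 and Uqcrfs1, the iron-sulfur subunit of complex III, by 1.83 ± 0.32 on the log2 scale (edgeR adjusted p = 0.000318 and 0.000205). In PAP TRAP over PAP input few moved, where 1.52% of all genes were called lower. By edgeR, 1 complex I subunit was lower (Ndufb9, -1.74 ± 0.35, adjusted p = 0.00786). So was 1 in the complex V list (Atpif1, an inhibitor of the complex, -1.46 ± 0.38, edgeR adjusted p = 0.0340).

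Among proteins of the mitochondrial ribosome, 16 of 72 tested were called higher and 0 lower in cortex TRAP over cortex input. Of all genes, 15.9% were called higher and 19.5% lower there. Against cortex TRAP, 25 were lower and 0 higher in PAP TRAP, where 14.6% of all genes were lower and 19.3% higher. Mrpl30, a large-subunit protein, changed by 1.79 ± 0.37 in cortex TRAP over cortex input and by -1.67 ± 0.37 in PAP TRAP over cortex TRAP (edgeR adjusted p = 0.000733 and 0.00162). Of 17 tested genes of mitochondrial transcription and the nucleoid, 0 were called in cortex TRAP over input. In PAP TRAP against cortex TRAP 2 were lower, no larger a share than the 14.6% of all genes.

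Of 32 genes of mitochondrial RNA processing, stability and decay, 4 were higher and 1 lower in cortex TRAP over cortex input, no larger a share than the 15.9% of all genes called higher and the 19.5% called lower. Lrpprc, which stabilizes mitochondrial mRNAs, was the lower one at -2.27 ± 0.58 (edgeR adjusted p = 0.00429). Rexo2, an oligoribonuclease, was higher at 2.09 ± 0.37, and so was Hsd17b10, a subunit of mitochondrial RNase P, which trims the 5′ ends of tRNAs, at 2.69 ± 0.53 (edgeR adjusted p = 0.000196 and 0.000484). Hsd17b10 was also the 1 gene of the list called in PAP TRAP over PAP input, at 2.27 ± 0.56 (edgeR adjusted p = 0.0259). There 3.02% of all genes were called higher. Of 19 mitochondrial aminoacyl-tRNA synthetases, 2 were higher in cortex TRAP over cortex input, again below the share of all genes, and edgeR called 0 in PAP TRAP over PAP input.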

How the data were processed

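RNA was measured by sequencing in 12 libraries, grouped by their titles. Per the labels' protocols, cDNA was made from 2 ng of RNA, amplified by SPIA and sheared to about 200 bp. The authors deposited whole-number counts of reads per gene, not normalized, judged from the files. The submitters' processing notes name STAR, Bowtie2, HTSeq and Trimmomatic 0.32 without role or order. Which build, gene models and strandedness were used is not given in the sources used here. Counts under entries naming no gene (20.3% to 55.5% of all) stayed out of library sizes.

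Genes were kept by filterByExpr (minimum count 10, minimum total 15) and fitted with edgeR 4.0.16 (R 4.3.3), quasi-likelihood F test, 1 mean per group, TMM factors from 0.191 to 2.46, Benjamini-Hochberg adjustment, or with the summed mitochondrial mRNA count as library size. DESeq2 1.42.0 was an alternative. Only the TMM fit of PAP TRAP over PAP input was run on simulated counts, in which chosen genes were changed in PAP TRAP and no other group effect was set. The fit scaled to mitochondrial mRNA was not run on them, and groups differing in mitochondrial share were not simulated. Amplified reads without molecular identifiers are not independent molecules, so floors of 3 counts cover counting error only. Shared stretches were found as 50-base words of GENCODE M21 transcripts. Replicates differed beyond sampling noise (chi-square per degree of freedom 17.2 to 85.3). All members, with values for mRNAs, rRNAs and tRNAs averaging at least 10 counts, and in each nuclear list up to 2 called genes per direction by p, were eligible to be named. The members and lists were chosen with earlier results of these data known. Other lists run, for translation factors, mitochondrial dynamics and endothelium, are given in the closing section.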

Additional observations from a re-analysis of the deposited data

Results flagged for a closer look

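The change in TRAP over input differed between the synaptoneurosome layer and the whole preparation for 22 members, by the interaction term of the edgeR fit on the TMM scale. A positive value means that the change in PAP TRAP over PAP input lay above that in cortex TRAP over cortex input. Not all members fell in PAP TRAP over PAP input: mt-Tc, mt-Ta, mt-Tn and mt-Ts2 stood at 0.19, 0.04, 0.02 and 0.04, not called. It was 1.58 for mt-Rnr1 and 3.39 for mt-Rnr2. Among the mRNAs it was 5.11 for mt-Co1, 4.71 for mt-Nd1, 4.60 for mt-Nd4, 4.23 for mt-Co2, 3.60 for mt-Nd6, 3.53 for mt-Cytb, 2.89 for mt-Nd5 and 2.27 for mt-Nd2. The tRNAs gave 7.62 for mt-Tp, 6.07 for mt-Tf, 6.02 for mt-Tn, 6.0 for mt-Ta, 5.90 for mt-Tm, 5.79 for mt-Tc, 5.71 for mt-Tq, 5.62 for mt-Tl2, 5.41 for mt-Ti, 5.11 for mt-Ts2, 4.32 for mt-Tl1 and 4.21 for mt-Tr. Of these tRNAs, 8 had 0 counts in cortex TRAP, as did mt-Co2, and a fit against 0 rests on the prior count and gives no bound. Leaving out 1 library moved some values by over 1.5-fold: mt-Tc to 8.12, mt-Tl1 to 5.47 and mt-Tr to 5.79 without cortex TRAP replicate 3, mt-Tp to 9.20 without cortex TRAP replicate 1, mt-Nd2 to 2.86, mt-Ti to 6.05 and mt-Tm to 6.49 without PAP input replicate 1, and mt-Tn to 6.96 without PAP input replicate 2. The mt-Co2 call was lost in 8 of 12 fits that left out 1 library.

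Relative to mitochondrial mRNA, the same term was -2.53 for mt-Rnr1, -1.75 for mt-Nd2 and 3.95 for mt-Tp, where 73.5% of all genes were called lower and 0.232% higher. mt-Tp had 1 count over the 3 cortex TRAP libraries.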

How the results depend on the processing

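Counts of members called on the TMM scale kept their direction and stayed within 1.5 times under RLE factors, scaling on nuclear genes, no filter, DESeq2, the compared groups alone, the replicate block, a minimum fold of 1.5 and each left-out library. With total counts in place of TMM, PAP TRAP over PAP input had 12 higher and 3 lower, and PAP input over cortex input 13 higher. Among the rRNAs, mRNAs and the 3 tRNAs with the most counts, the log2 changes of PAP TRAP over PAP input that turned then were 1.94 for mt-Tl1, 1.63 for mt-Tp, 0.99 for mt-Nd1, 0.82 for mt-Co1, 0.41 for mt-Co3 and 0.30 for mt-Nd4. With 1 library left out, that of mt-Tc ranged from -0.14 to 0.47 and the interaction of mt-Te from -0.24 to 2.71. Scaling on nuclear genes gave 585 higher and 164 lower genes of all kinds in PAP TRAP over PAP input, against 403 and 203. DESeq2 gave 716 and 633 there, and 1549 and 542 in PAP input over cortex input, against 970 and 276.

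Counts relative to mitochondrial mRNA were small and moved. In the main fit on this scale, 61% of all genes were called higher in PAP TRAP over PAP input and 97.6% lower in PAP TRAP over cortex TRAP. Shares of all genes are not given for the alternative settings, so their counts describe the settings and are not read as results about the members. With 1 library left out, PAP TRAP over PAP input had 0 to 2 higher, cortex TRAP over cortex input 1 to 2 higher and 0 to 2 lower, PAP input over cortex input 0 to 1 higher, PAP TRAP over cortex TRAP 0 to 1 higher and 2 to 5 lower, and the interaction 0 to 2 higher and 1 to 3 lower. The median log ratio of the mRNAs as scale gave 3 higher in PAP TRAP over PAP input, 0 higher and 2 lower in cortex TRAP over cortex input, 8 higher and 1 lower in PAP TRAP over cortex TRAP, and 2 higher and 1 lower for the interaction. Scaling to all 37 members gave 16 higher and 0 lower in PAP TRAP over PAP input, 1 lower in cortex TRAP over cortex input, 17 higher and 1 lower in PAP TRAP over cortex TRAP, 3 higher in PAP input over cortex input, and 4 higher and 1 lower for the interaction. It turned mt-Rnr1 (0.063), mt-Nd5 (0.77), mt-Nd6 (0.42) and mt-Cytb (0.46) in PAP TRAP over PAP input, and mt-Rnr2 (0.57) and mt-Nd2 (0.87) in PAP TRAP over cortex TRAP. That scale is mostly rRNA by construction. No filter gave 0 higher in PAP TRAP over PAP input, 0 higher and 2 lower in PAP TRAP over cortex TRAP, and 0 higher for the interaction. Scaling to the 5 mRNAs with under 10% shared stretches, chosen after seeing the data, gave 3 higher and 1 lower in PAP TRAP over PAP input, 1 lower in cortex TRAP over cortex input, 4 higher and 1 lower in PAP TRAP over cortex TRAP, and 1 lower for the interaction. mt-Te in PAP TRAP over cortex TRAP ranged from -4.59 to 5.85 with 1 library left out. The cause of these shifts was not tested.

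Deviations of same-numbered libraries correlated at 0.011 to 0.065 over 12 pairs. Differently numbered libraries were not compared, so these values cannot tell whether replicate numbers pair the samples. With the replicate block, members called relative to mitochondrial mRNA were 0 higher and 2 lower in PAP TRAP over cortex TRAP and 0 higher for the interaction, and 25 in place of 26 were higher in PAP input over cortex input on the TMM scale.

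With counts assigned to no gene added to the denominator, the mean share was 24.1% in PAP TRAP, 69.4% in PAP input, 0.592% in cortex TRAP and 32.1% in cortex input for all members, and 20.3%, 64.8%, 0.566% and 30.6% for the rRNAs in the same order. For the mRNAs it was 3.76% in PAP TRAP, 4.53% in PAP input, 0.0252% in cortex TRAP and 1.43% in cortex input, so the PAP TRAP mean was below that of PAP input here and above it as a share of gene counts (6.37% and 5.79%), and for the tRNAs 0.0163% in PAP TRAP, 0.00578% in PAP input and 0.00224% in cortex input. Few counts limit what can be said of the tRNAs and of mt-Co2, mt-Co3, mt-Nd3, mt-Nd4l, mt-Atp6 and mt-Atp8 everywhere, and of all mRNAs in cortex TRAP. The reason for the low counts was not tested.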

Other observations

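Genes of mitochondrial dynamics and transport along microtubules were called in both directions. Of 17 tested, edgeR called 2 higher and 5 lower in cortex TRAP over cortex input, where 15.9% of all genes were higher and 19.5% lower. It called 6 higher and 2 lower in PAP TRAP than in cortex TRAP, where 19.3% were higher and 14.6% lower. It called 1 higher and 1 lower in PAP TRAP over PAP input, where 3.02% were higher and 1.52% lower, and 4 higher and 0 lower in PAP input over cortex input, where 7.26% were higher and 2.07% lower.

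Of 19 tested translation factors and assembly genes of the organelle, 1 was higher in cortex TRAP over cortex input, where 15.9% of all genes were. It was Oxa1l, which inserts mitochondrially made proteins into the inner membrane (1.32 ± 0.38, edgeR adjusted p = 0.0101). In PAP TRAP over PAP input 0 were called. Gfm1, an elongation factor of the mitochondrial ribosome, was higher in PAP input than in cortex input (1.69 ± 0.37, adjusted p = 0.00660). Of 5 endothelial markers only 2 passed the filter, and 1 was higher in PAP TRAP than in cortex TRAP.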
